A study of Mus musculus with 6 samples.

Results

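Pyruvate, the end product of glycolysis, stands at a branch point of liver metabolism, and 10 genes that set its fate were followed here in livers that lack the M2 form of pyruvate kinase. The 10 were taken by symbol from the deposited table, and every one was found among its 23224 rows and passed the filter on low counts that left 13058 genes for testing. They encode subunits of the pyruvate dehydrogenase complex (Pdha1, Pdhb, Dlat), the kinases that switch that complex off (Pdk1, Pdk2, Pdk4), a phosphatase that switches it back on (Pdp2), pyruvate carboxylase (Pcx) and the lactate dehydrogenases (Ldha, Ldhb). Polyadenylated RNA from ground whole liver was sequenced in mice aged 35 weeks. The groups were PKM2 KO, which lost PKM2 in the germline and so in every cell of the liver, and WT, with 3 independent mice each. Both carry the mixed background C57BL/6J x 129SvJ and received no treatment. The labels do not give sex, litter or feeding state, and they do not say whether the sampled tissue held tumour.

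In the mitochondrion, the pyruvate dehydrogenase complex turns pyruvate into acetyl-CoA irreversibly, which commits its carbon to the citric acid cycle or to fat synthesis. Phosphorylation by the Pdk enzymes blocks this step in the fasted liver, where pyruvate carboxylase instead makes oxaloacetate for new glucose. In the cytosol, lactate dehydrogenase interconverts pyruvate and lactate. The LDHA subunit predominates in liver and the LDHB subunit in heart. PKM2 is the minor pyruvate kinase of liver, where the hepatocyte enzyme comes from Pklr.

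None of the 10 genes differed between PKM2 KO and WT liver beyond the spread between mice. In edgeR's quasi-likelihood test with Benjamini-Hochberg adjustment over all 13058 genes, 0 of 10 had an adjusted p under 0.05, where the share over all genes was 0.023%. An unadjusted p under 0.05 was also reached by 0 of 10 (7.24% of all genes), and DESeq2 and limma voom called 0 of 10 as well. The livers of both genotypes overlapped for each of the 10, and 12.1% of all genes had no overlap. With only 10 genes, counts of 0 are near these shares and do not set the 10 apart from other genes. Log2 fold changes (PKM2 KO over WT) were positive for 6 and negative for 4, with a median of 0.06 against -0.01 over all genes. The median size of the change was 0.12, against 0.14 over all genes. The largest fold change of the 10, that of Pdk1, is described below with its dependence on a single WT liver.

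The whole data set bears on these values as follows. Library totals ran from 27727048 to 36125711 expected counts, and the 10 genes together took 0.157% to 0.189% of them. Pkm, the targeted gene, listed under its older symbol Pkm2 and counted over both splice forms, was at 7.62 ± 1.78 CPM (read counts relative to TMM-scaled library size, SD, n = 3) with PKM2 deleted, against 21.0 ± 5.34 CPM (WT), with no overlap. Its adjusted p was 0.314 in edgeR's quasi-likelihood test and 4.9e-06 with DESeq2. Summed hepatocyte markers were at 94733 to 130650 CPM, which fits the labelled tissue. The 15 pancreatic acinar markers summed to 3430 CPM in WT 1 and 9976 CPM in WT 2 but to 34.7 to 64.0 CPM in WT 3 and the PKM2 KO livers. The muscle marker sum reached 40.6 CPM in PKM2 KO 1, 23.1 CPM in WT 2 and 1.22 to 7.37 CPM elsewhere.

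Levels of different genes were compared per kilobase, with the median length of the CCDS transcripts of each gene in GENCODE M21, an annotation of a later build than that of the counts. By the median over the 6 livers, Ldha was the most abundant of the 10 at 352 CPM per kilobase, followed by Pcx at 135. Next came Pdhb at 72.7, Pdk2 at 59.6 and Pdha1 at 48.4, whose ranges over the livers overlapped from each neighbour to the next. Pdk1 at 18.7 and Dlat at 11.5 CPM per kilobase also overlapped. Pdp2 stood apart from its neighbours at 4.51, and Ldhb at 1.94 and Pdk4 at 1.08 overlapped at the low end. The Pcx transcript was thus measured above those of Pdha1, Pdhb and Dlat in every liver. The lowest Pcx value was 112 and the highest Pdhb value 83.4 CPM per kilobase. Enzyme levels were not measured.

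**Figure D1:**
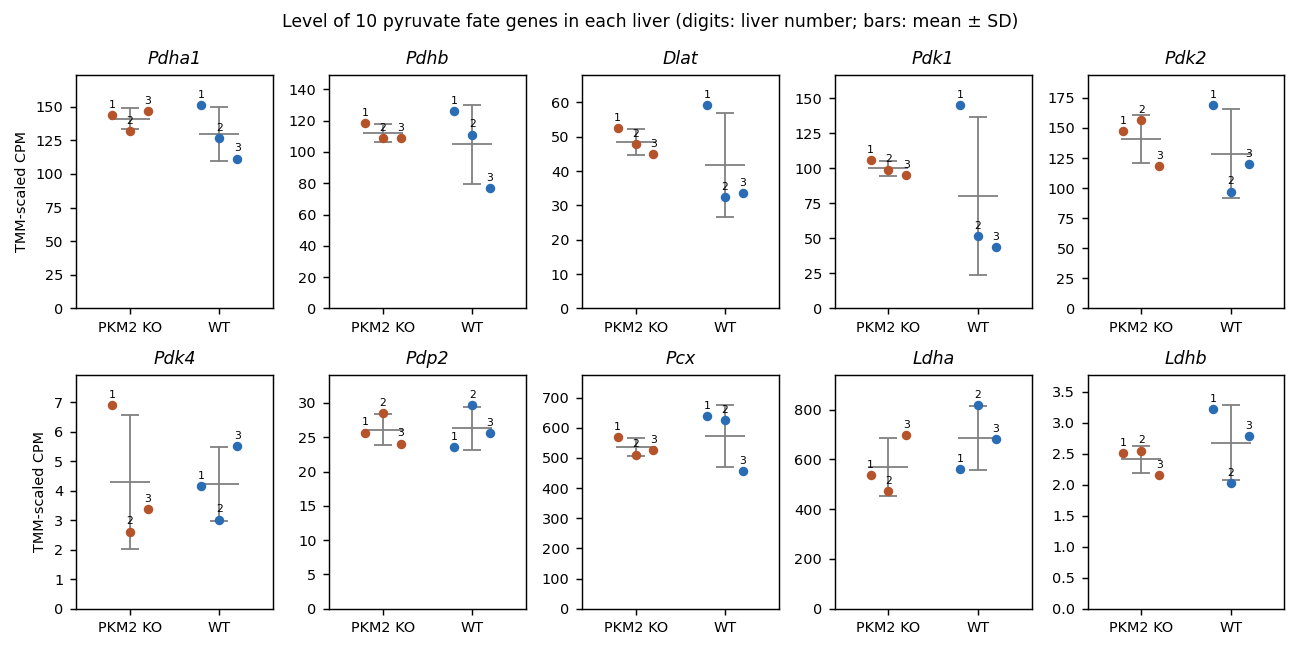
TMM-scaled CPM (vertical axes, each from 0) of the 10 genes in every liver, with PKM2 KO in brown and WT in blue. Digits are liver numbers, grey bars the mean ± SD of 3 livers. The genotypes overlap in all 10 panels, and for Pdk1 the 3 WT livers run from 43.7 to 145 CPM while the PKM2 KO livers lie between 95.1 and 106 CPM.

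The subunits that carry out the reaction were nearly level across the PKM2 KO livers and less so across the WT livers. Values per liver are given in the order of livers 1, 2 and 3 of each genotype. Pdha1, the alpha subunit of the decarboxylating enzyme and the target of the Pdk kinases, measured 144, 132 and 147 CPM (PKM2 KO) against 151, 126 and 111 CPM (WT). WT 1 was the highest and WT 3 the lowest of the 6. On the log2 scale the change was 0.12 (approximate 95% interval -0.21 to 0.45, adjusted p = 0.908 in edgeR's quasi-likelihood test). Pdhb, the beta subunit of the same enzyme, measured 119, 109 and 109 CPM (PKM2 KO) against 126, 111 and 77.1 CPM (WT). Its log2 fold change was 0.10 (interval -0.33 to 0.52), with WT 1 again highest and WT 3 lowest. The Pdha1 to Pdhb ratio of CPM, which does not depend on library scaling, averaged 1.26 ± 0.0799 (PKM2 KO) against 1.26 ± 0.163 (WT) (SD, n = 3).

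Dlat encodes the dihydrolipoamide acetyltransferase that forms the core of the complex. It measured 52.4, 47.9 and 44.8 CPM (PKM2 KO) against 59.2, 32.4 and 33.5 CPM (WT). WT 1 was above and WT 2 and WT 3 below all PKM2 KO livers. The change, as log2, came to 0.22 (interval -0.33 to 0.76, adjusted p = 0.902 in edgeR's quasi-likelihood test). Without WT replicate 1 it was 0.56, with an adjusted p of 0.0955, and without WT replicate 2 or WT replicate 3 it was 0.07 and 0.08. Dlat lies on chromosome 9 with Pkm. In the RefSeq gene order of GRCm38.p6, 80 of the 714 tested genes of that chromosome lie between them.

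Of the other genes of the complex and its lipoylation, 8 of 9 listed were tested. Dld, the shared dihydrolipoamide dehydrogenase and the most abundant of the list, averaged 129 ± 6.1 CPM (PKM2 KO) against 121 ± 10.6 CPM (WT) (SD, n = 3). None of the 8 passed in edgeR's quasi-likelihood test, in DESeq2 or in limma voom, with a median log2 fold change of 0.08, 6 positive and 2 negative. The 2 with an unadjusted p under 0.05 were Pdp1, the phosphatase gene paralogous to Pdp2, and Pdk3, a kinase gene little used in liver. Pdp1 measured 0.689, 0.529 and 0.486 CPM (PKM2 KO) against 0.822, 1.53 and 1.0 CPM (WT). Its log2 fold change was -0.98 (adjusted p = 0.631 in edgeR's quasi-likelihood test). Pdk3 measured 0.31, 0.311 and 0.213 CPM (PKM2 KO) against 0.501, 0.436 and 0.731 CPM (WT), with a log2 fold change of -1.002 (adjusted p = 0.645 in the same test). Neither gene overlapped between genotypes, which makes 2 of the 8 tested (12.1% of all genes). Both measured lower in every liver than Ldhb, whose counting error reached 12.4%, so low counts limit both. Beside Pdp1 and Pdk3, all 10 macrophage and Kupffer cell markers had negative fold changes, and their summed level was 312 to 364 CPM (PKM2 KO) against 397 to 428 CPM (WT). Lymphocyte markers summed to 10.6 to 13.5 CPM (PKM2 KO) against 13.1 to 21.1 CPM (WT), with 7 of 8 negative. Most of this sum was Ptprc, which averaged 7.64 CPM (PKM2 KO) and 11.3 CPM (WT) and overlapped. Bile duct markers summed to 27.0 to 32.5 CPM (PKM2 KO) against 32.6 to 49.4 CPM (WT), with 6 of 6 negative. Most of that sum was Spp1, which averaged 24.5 CPM (PKM2 KO) and 26.5 CPM (WT) and overlapped at a log2 fold change of -0.11. Endothelial and stellate cell markers went the other way, with 8 of 10 positive. Their sums overlapped at 361 to 442 CPM (PKM2 KO) against 320 to 399 CPM (WT). Of the macrophage markers, 4 of 10 had no overlap (12.1% of all genes), while Cd5l, Clec4f and Vsig4 overlapped at log2 fold changes of -0.05, -0.12 and -0.11. The highest bile duct sum was in WT 2, the liver with the most pancreatic transcripts, against 32.6 CPM in WT 1 and 34.5 CPM in WT 3. The part of pancreatic tissue in the bile duct markers was not tested. The part of these cell types in the Pdp1 and Pdk3 values was not tested, and in whole liver fewer cells of a type and less RNA per cell cannot be told apart. Pdha2, the testis copy of Pdha1, had 0 counts in all 6 libraries, and 3 counts would be 0.083 to 0.108 CPM.

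Pdk1 was the most variable of the kinases among WT livers and the least variable among PKM2 KO livers. It measured 106, 98.9 and 95.1 CPM (PKM2 KO) against 145, 51.8 and 43.7 CPM (WT). WT 1 exceeded every PKM2 KO liver, while WT 2 and WT 3 fell short of each. The highest value was 3.32-fold the lowest in WT and 1.11-fold in PKM2 KO. As an SD of log2 CPM this spread was 0.936 (WT) and 0.077 (PKM2 KO). Over all tested genes the medians of these SDs were 0.227 and 0.144.

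With all 6 livers, the log2 fold change of Pdk1 was 0.32 (interval -0.67 to 1.31, adjusted p = 0.924 in edgeR's quasi-likelihood test). The interval runs from 0.628-fold to 2.47-fold, so changes in either direction lie inside it. Without WT replicate 1, Pdk1 was higher in PKM2 KO by a log2 fold change of 1.07 and passed the threshold (adjusted p = 0.0348), as did 0.382% of all genes in that fit. Compared with WT 3 alone, which held few pancreatic transcripts, the change was 1.197 (adjusted p = 0.0251 in edgeR's quasi-likelihood test, where 1.19% of all genes passed). A lone WT liver is there assumed to vary like the PKM2 KO livers. Without WT replicate 2 or WT replicate 3 the change was 0.09 and 0.02. A call for Pdk1 between the genotypes therefore depends on whether WT 1 is counted. The part of pancreatic RNA in these values was not tested.

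**Figure D2:**
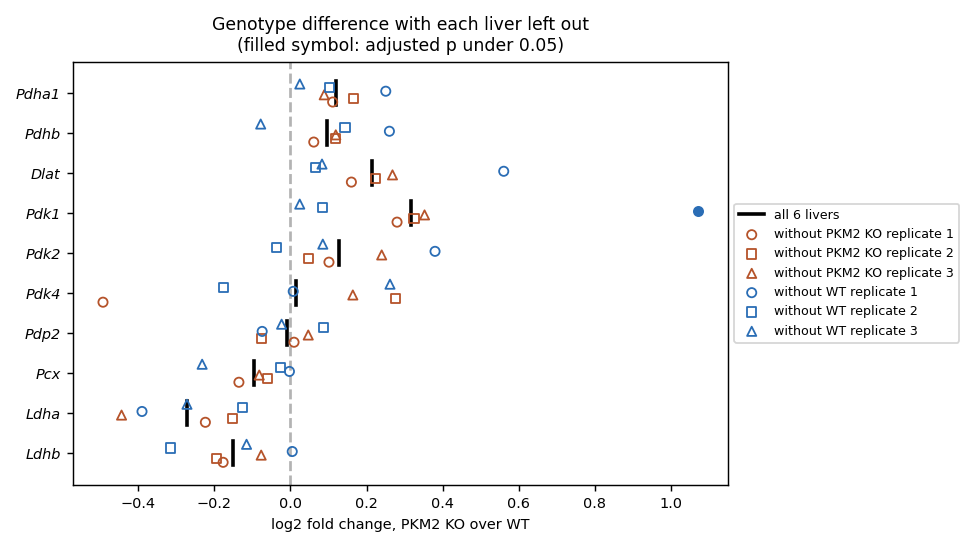
Log2 fold change, PKM2 KO over WT (horizontal axis), of each gene with all 6 livers (black bars) and with each liver left out in turn (brown, a PKM2 KO liver; blue, a WT liver; filled symbols, adjusted p under 0.05). The 1 filled symbol is Pdk1 without WT replicate 1, at 1.07.

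Pdk2, the broadly expressed kinase that predominates in liver, measured 147, 157 and 118 CPM (PKM2 KO) against 169, 97.1 and 120 CPM (WT). The extremes were both WT livers. This gave a log2 fold change of 0.13 (interval -0.38 to 0.64, adjusted p = 0.94 in edgeR's quasi-likelihood test). Pdk4, the isoform induced by fasting and by PPARalpha, was low: it measured 6.89, 2.61 and 3.37 CPM (PKM2 KO) against 4.15, 3.02 and 5.52 CPM (WT). PKM2 KO 1 and WT 3 were the high livers, and the means were 4.29 ± 2.28 and 4.23 ± 1.25 CPM. It gave a log2 fold change of 0.02 (interval -0.89 to 0.92). It turned to -0.49 without PKM2 KO replicate 1, the liver with the highest muscle marker sum of 40.6 CPM (8 of 10 markers tested, Myh6 and Actc1 being too low). WT 2, with the next highest sum, had one of the lower Pdk4 values, and the part of muscle RNA in Pdk4 was not tested. Its expected counts were 83.9 to 204 per library, so counting error alone reaches 10.9% of the lowest value.

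Per kilobase, Pdk2 supplied most of the kinase transcripts in every liver. Its share of the sum of Pdk1 to Pdk4 came to 74.5%, 77.7% and 73.1% (PKM2 KO) against 71.9%, 79.6% and 83.8% (WT). Pdk1 made up 23.3 ± 2.07% in PKM2 KO and 19.4 ± 6.83% in WT (SD, n = 3), from 13.2% in WT 3 to 26.7% in WT 1. Pdk4 made up 0.836% to 2.48% and Pdk3 at most 0.541%. The Pdk1 to Pdk2 ratio of CPM averaged 0.717 ± 0.0852 (PKM2 KO) against 0.585 ± 0.251 (WT), with WT 1 at 0.858 and WT 3 at 0.364, the extremes of the 6. The Pdk4 to Pdk2 ratio was 0.0307 ± 0.0152 and 0.0339 ± 0.011. These ratios are given as a description and were not tested. With 3 livers against 3, an exact permutation test cannot go below a two-sided p of 0.1.

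**Figure D3:**
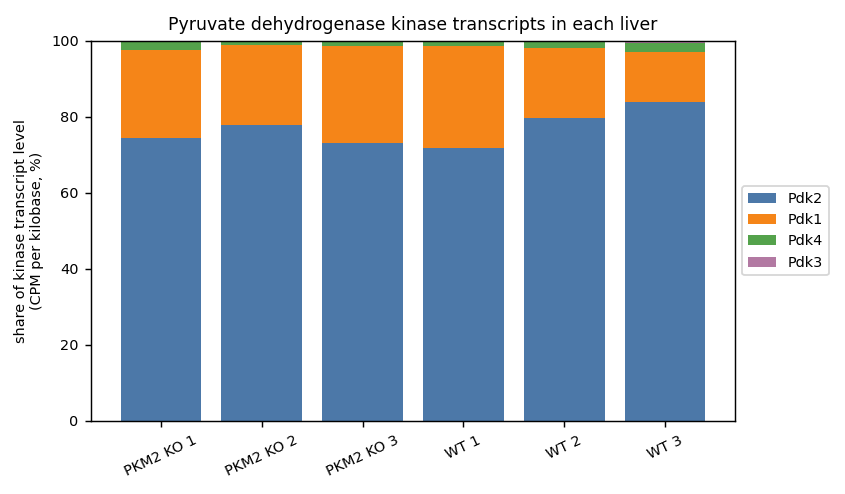
Share (vertical axis, %) of Pdk1, Pdk2, Pdk3 and Pdk4 in the summed level per kilobase of the 4 kinase genes, for each liver on the horizontal axis. Pdk2 holds 71.9% to 83.8% in each bar, and the Pdk1 share is smallest in WT 3 at 13.2%.

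Pdp2, the insulin-responsive phosphatase that reactivates the complex, was the steadiest of the 10. It measured 25.7, 28.5 and 24.1 CPM (PKM2 KO) against 23.6, 29.6 and 25.6 CPM (WT). The PKM2 KO values lay inside the WT range, and the highest liver was 1.26-fold the lowest. On the log2 scale the change was -0.01 (interval -0.30 to 0.28, adjusted p = 0.99 in edgeR's quasi-likelihood test), which leaves outside the interval a fall below 0.813-fold or a rise above 1.21-fold.

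Pcx, which feeds pyruvate into gluconeogenesis, measured 570, 511 and 527 CPM (PKM2 KO) against 638, 625 and 455 CPM (WT). WT 1 and WT 2 lay above and WT 3 below all PKM2 KO livers. The change, as log2, came to -0.10 (interval -0.49 to 0.30, adjusted p = 0.944 in edgeR's quasi-likelihood test). It was -0.23 without WT replicate 3 and 0.24 against WT 3 alone.

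Ldha had the most negative fold change of the 10. It measured 536, 472 and 698 CPM (PKM2 KO) against 562, 817 and 682 CPM (WT). The 3 highest livers were WT 2, PKM2 KO 3 and WT 3, so the groups overlapped. The means were 569 ± 116 and 687 ± 128 CPM (SD, n = 3), with a log2 fold change of -0.27 (interval -0.76 to 0.22, adjusted p = 0.822 in edgeR's quasi-likelihood test). The fold change was negative with each liver left out, from -0.44 (PKM2 KO 3 left out) to -0.13 (WT 2 left out). The expected counts of Ldha were not whole numbers in any of the 6 libraries, so RSEM had assigned some of its reads only in part, and its level carries that uncertainty. The counts of Pcx were likewise not whole in any library.

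Ldhb was nearly off: it measured 2.52, 2.55 and 2.16 CPM (PKM2 KO) against 3.22, 2.02 and 2.79 CPM (WT). The PKM2 KO values lay inside the WT range. This gave a log2 fold change of -0.15 (interval -0.68 to 0.38, adjusted p = 0.93 in edgeR's quasi-likelihood test). Expected counts were 65 to 103 and whole in all 6 libraries, with a counting error of up to 12.4%. Per kilobase, Ldhb made up 0.591 ± 0.158% of the summed Ldha and Ldhb level in PKM2 KO and 0.552 ± 0.218% in WT, from 0.334% in WT 2 to 0.77% in WT 1. Of the other lactate dehydrogenases, Ldhd, the mitochondrial enzyme for D-lactate, averaged 176 ± 2.92 CPM (PKM2 KO) against 172 ± 42.2 CPM (WT) (adjusted p = 0.982 in edgeR's quasi-likelihood test). The testis gene Ldhc had 0 counts in all 6 libraries, and Ldhal6b had 0 to 5.

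**Figure D4:**
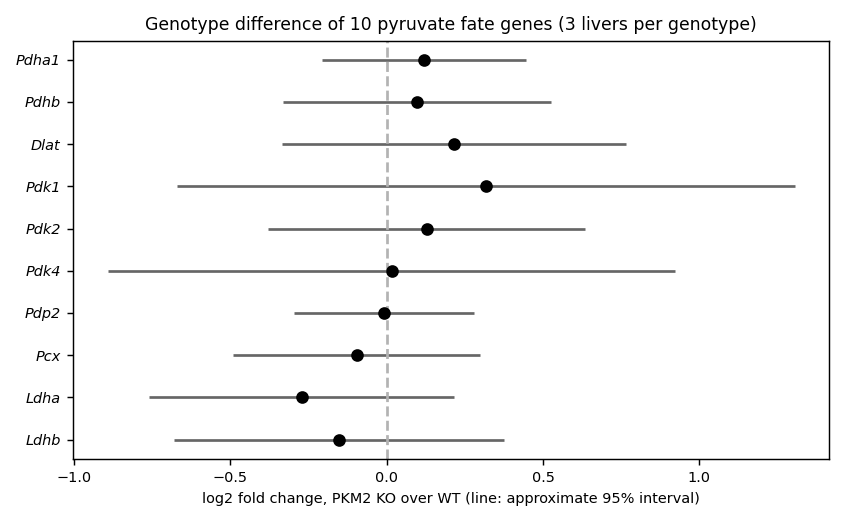
Log2 fold change, PKM2 KO over WT (horizontal axis), of the 10 genes as points, with approximate 95% intervals as lines and 3 livers per genotype. Every interval includes 0. The widest belong to Pdk1 (-0.67 to 1.31) and Pdk4 (-0.89 to 0.92), the narrowest to Pdp2 (-0.30 to 0.28).

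Pdk1 and Ldha are textbook targets of hypoxia-inducible factors (HIF), and the promoters of both are shown because the genes differed in the place of WT 1, the highest WT liver for Pdk1 and the lowest for Ldha. WT 2 was above WT 3 for both. The windows reach from 250 bases before to 50 after the start in RefSeq, GRCm38.p6, at chr2:71872974-71873273 on the + strand for Pdk1 and chr7:46845554-46845853 on the + strand for Ldha. Each is the more upstream of the starts listed for its gene. Capitals mark the core letters of the HIF motif, ACGTG or GCGTG, on either strand, and a palindromic CACGTG counts on both.
Pdk1: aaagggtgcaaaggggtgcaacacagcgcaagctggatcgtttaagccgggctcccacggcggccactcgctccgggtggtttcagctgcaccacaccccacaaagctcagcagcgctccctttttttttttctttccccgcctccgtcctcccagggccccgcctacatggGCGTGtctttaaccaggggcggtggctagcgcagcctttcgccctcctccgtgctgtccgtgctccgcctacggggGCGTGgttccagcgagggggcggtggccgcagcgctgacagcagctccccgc
Ldha: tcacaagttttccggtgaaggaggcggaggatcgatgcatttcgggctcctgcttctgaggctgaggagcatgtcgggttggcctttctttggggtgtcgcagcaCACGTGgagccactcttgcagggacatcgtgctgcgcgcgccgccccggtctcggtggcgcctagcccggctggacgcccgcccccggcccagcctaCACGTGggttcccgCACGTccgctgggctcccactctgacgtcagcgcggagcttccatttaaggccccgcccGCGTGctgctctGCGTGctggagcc
The Pdk1 window held 2 matches, both GCGTG. The Ldha window held 7, of which 5 were ACGTG. Among the other genes with WT 1 highest, ACGTG matches numbered 2 for Pdk2, 3 for Pcx and 1 for Pdhb, in the more upstream window where there were several. They numbered 0 for Pdha1, Dlat and Ldhb. GCGTG matches in the same windows numbered 4 for Pdha1, 1 for Pdhb, 1 for Ldhb and 0 for Dlat, Pdk2 and Pcx. Whether either motif goes with the place of WT 1 was not tested. Either motif occurs in 43.8% of the 32851 promoter windows of this length and ACGTG in 19.6%, and these matches describe letters only.

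Among 12 genes of the HIF response outside the 10, none passed in edgeR's quasi-likelihood test, DESeq2 or limma voom, and 0 had an unadjusted p under 0.05. There were 4 positive and 8 negative fold changes, with a median of -0.05. P4ha1, a collagen prolyl hydroxylase subunit, averaged 5.46 ± 0.904 CPM (PKM2 KO) against 6.96 ± 0.381 CPM (WT) (adjusted p = 0.718 in edgeR's quasi-likelihood test). Ndrg1, a stress-responsive gene, was at 13.5 ± 2.61 and 9.32 ± 2.94 CPM (adjusted p = 0.731). Bnip3, a mitophagy receptor and the most abundant of the list, was at 189 ± 16.6 and 233 ± 67.3 CPM (SD, n = 3). WT 1 was highest for 3 of the 12.

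Across the 10, one liver recurred at the top. WT 1 had the highest level of the 6 livers for 7 of the 10 (Pdha1, Pdhb, Dlat, Pdk1, Pdk2, Pcx and Ldhb), and for 18.4% of all tested genes. The same 7 had WT 1 highest with RLE, upper quartile and library total scaling. WT 3 was lowest for 4 of the 10, against 23.4% of all genes. The WT livers varied more than the PKM2 KO livers for 8 of 10 (70.3% of all genes), the exceptions being Pdk4 and Ldha. The median SD of log2 CPM was 0.352 in WT and 0.118 in PKM2 KO for the 10. These counts describe the 6 livers and were not tested.

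By the root mean square difference of centred log2 CPM over the 6 livers, the genes most like Pdk1 among 7410 were Inmt, an indolethylamine methyltransferase, at 0.0862, Rdh16, a retinol dehydrogenase, at 0.0948, and Nr1i3, the xenobiotic receptor CAR, at 0.145. The median over the 7410 was 0.613. Nr1i3 measured 137, 131 and 119 CPM (PKM2 KO) against 158, 53.4 and 46.5 CPM (WT). Nearest to Pdk4 were the MHC class II genes H2-Ab1 at 0.139 and H2-Eb1 at 0.155, and the chemokine gene Cxcl9 at 0.156, where the median was 0.529. H2-Ab1 measured 41.6, 17.8 and 23.4 CPM (PKM2 KO) against 26.9, 25.2 and 38.3 CPM (WT), with PKM2 KO 1 and WT 3 as the high livers. All these genes were picked for their likeness over the same 6 livers, so the shared order of livers is no separate result.

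Transport of pyruvate and lactate gave a like picture, with 0 of 5 tested genes past the threshold in edgeR's quasi-likelihood test, DESeq2 or limma voom and 0 with an unadjusted p under 0.05. The median log2 fold change was 0.23, with 4 positive. Mpc1, a subunit of the mitochondrial pyruvate carrier listed as Brp44l, measured 214, 211 and 222 CPM (PKM2 KO) against 224, 157 and 139 CPM (WT). It gave a log2 fold change of 0.32 (adjusted p = 0.768 in edgeR's quasi-likelihood test). Slc16a7, the monocarboxylate transporter MCT2, measured 59.5, 49.6 and 52.3 CPM (PKM2 KO) against 64.2, 19.6 and 31.0 CPM (WT), with WT 1 the highest and WT 2 and WT 3 the low livers, as for Pdk1. Bsg, the most abundant of the list, was at 319 ± 30.9 and 293 ± 48.6 CPM (SD, n = 3).

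Of 10 tested genes for other enzymes that make or use pyruvate or stand next to it, none passed in edgeR's quasi-likelihood test or limma voom, DESeq2 called Pkm, and 2 had an unadjusted p under 0.05 (Pkm and Me2). Me2, the mitochondrial malic enzyme that makes pyruvate from malate, averaged 1.86 ± 0.407 CPM (PKM2 KO) against 3.16 ± 0.847 CPM (WT) with no overlap (SD, n = 3, adjusted p = 0.641 in edgeR's quasi-likelihood test). With Pkm, 2 of the 10 had no overlap (12.1% of all genes). Pck1, which takes the oxaloacetate made by pyruvate carboxylase on to glucose, was at 1710 ± 377 and 2166 ± 320 CPM. Pklr, the hepatocyte pyruvate kinase, chosen for mention after its values were seen, measured 643, 482 and 396 CPM (PKM2 KO) against 633, 175 and 207 CPM (WT). WT 2 and WT 3 were its low livers, as for Pdk1 and Dlat, and its log2 fold change was 0.58 (adjusted p = 0.847 in the same test).

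In the citric acid cycle, which takes up the acetyl-CoA, 0 of 16 genes passed in edgeR's quasi-likelihood test, DESeq2 or limma voom, with 8 positive, 8 negative and a median log2 fold change of 0.02. The 2 with an unadjusted p under 0.05 (7.24% of all genes) were both lower in value in PKM2 KO. Ogdh, a subunit of the oxoglutarate dehydrogenase complex, a relative of the pyruvate dehydrogenase complex, measured 190, 186 and 176 CPM (PKM2 KO) against 211, 239 and 254 CPM (WT). Its log2 fold change was -0.35 (adjusted p = 0.631). Fh1, fumarase, measured 223, 225 and 249 CPM (PKM2 KO) against 266, 338 and 276 CPM (WT), at -0.34 (adjusted p = 0.68). Neither overlapped. Sdha, the flavoprotein of succinate dehydrogenase and the most abundant of the list, was at 578 ± 7.35 and 494 ± 77.7 CPM (SD, n = 3). WT 1 was highest for 10 of the 16.

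Regulators and target genes of the fasting response gave 0 of 16 past the threshold in edgeR's quasi-likelihood test, DESeq2 or limma voom, with 7 positive, 9 negative and a median log2 fold change of -0.07. The 2 with an unadjusted p under 0.05 were Plin2, a lipid droplet coat protein, at 367 ± 44.0 CPM (PKM2 KO) against 516 ± 35.9 CPM (WT) (adjusted p = 0.566 in edgeR's quasi-likelihood test), and Angptl4, an inhibitor of lipoprotein lipase, at 42.2 ± 10.8 and 69.5 ± 13.9 CPM (SD, n = 3, adjusted p = 0.583). An unadjusted p under 0.05 was reached by 7.24% of all genes. Plin2, Angptl4 and Ppara, 3 of the 16, had no overlap (12.1% of all genes), unlike Pdk4. For Ppara the nearest livers were PKM2 KO 1 at 372.5 CPM and WT 2 at 372.8 CPM. WT 1 was highest for 13 of the 16.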

How the data were processed

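The deposited table gives expected counts per gene, RSEM's estimates of reads after those that match several transcripts are divided. Per the submitters' processing notes, Bowtie 1.0.1 and RSEM 1.2.12 were used with genome build mm9. Annotation and strandedness are not given in the sources used here. All 6 value columns were used.

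Expected counts were rounded. Genes were filtered with filterByExpr of edgeR 4.0.16 in R 4.3.3, scaled by TMM and compared across all genes with edgeR's quasi-likelihood F test, genotype as the only term, and Benjamini-Hochberg adjustment at 0.05. Intervals are approximate, from an SE derived from the F statistic, and use 7.41 degrees of freedom. Log2 CPM has a prior count of 2. P-values measure the spread between mice.

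The 10 genes and all lists were chosen with earlier results of these data known. The rule for named genes took, from each pathway list, the 2 smallest p values and the most abundant gene, plus the 3 genes most like each member spanning at least 1 log2 unit, with a mean of at least 10 CPM. A gene that this rule names is not reported here. Of 13058 tested genes, 99.3% matched RefSeq by symbol. No pair of libraries agreed within sampling noise. The fit was tested on simulated counts, where it called 57.7% of planted changes of 1 log2 unit and 96.0% of those of 2. The simulated spread followed the trend over all genes, so recovery for a gene as variable as Pdk1 was not measured. Alternatives included DESeq2 1.42.0, limma 3.58.1 (voom), other scalings and filters, a replicate block and each liver left out. Plots used Python 3.11.15 and matplotlib 3.10.9.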

Additional observations from a re-analysis of the deposited data

How the results depend on the processing

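Of the 19 alternatives tried for each of the 10 genes, Pdk1 was called without WT replicate 1 (1.07) and against WT 3 alone (1.197), and no other gene of the 10 passed the threshold in any. Directions held in all 19 for Pdha1, Dlat, Pdk1 and Ldha. Pdk4 turned to -0.10 with limma voom, -0.0612 with the replicate block and -0.36 against WT 3 alone, and ran from -0.49 to 0.28 with single livers left out. Pdp2 turned to 0.0234 with library totals only, 0.0017 with no filter on low counts and 0.0316 against WT 3 alone, and ran from -0.0772 to 0.0872 with single livers left out. Pcx turned to 0.24 against WT 3 alone. With single livers left out Pdhb ran from -0.0784 to 0.26, Pdk2 from -0.0368 to 0.38 and Ldhb from -0.32 to 0.0046. Pdk1 was at 0.54 with the replicate block and 0.52 with limma voom, uncalled in both. The cause of these shifts was not tested. Leaving out PKM2 KO 3, WT 2 or WT 3 left 1 of the 10 with no overlap (Ldha, Ldhb and Pcx respectively), as it did 23.2%, 20.7% and 22.4% of all genes. Without WT replicate 1, 3 of the 10 (Pdha1, Dlat and Pdk1) and 34.4% of all genes had none, and against WT 3 alone 6 of the 10 and 66.9% of all genes. The count of genes called over the whole table was 3, and 97 with DESeq2, 7 with the replicate block, 7 at an adjusted p under 0.1, 6 with robust quasi-likelihood, 5 with limma voom, 5 with no filter on low counts, 163 against WT 3 alone and 3 to 51 with single livers left out, the 51 both without WT replicate 1 and without WT replicate 3. Livers that share a number did not deviate together (correlations -0.051, 0.027 and -0.092). With deviations from means of 3 livers these values cannot exclude a pairing by litter or batch, so whether the numbers stand for pairs is unknown. Low counts limit Ldhb and Pdk4, and outside the 10 also Pdp1 and Pdk3.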
